A study of Mus musculus with 16 samples.

Results

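The genes described here are 10 genes of the disease-associated state of microglia that is tied to the receptor TREM2: Trem2, Tyrobp, Apoe, Spp1, Gpnmb, Itgax, Cst7, Igf1, Csf1 and Cd52. They were chosen by name as 10 of the 55385 genes in the deposited expression table, and each name has 1 row. Their levels come from bulk RNA sequencing of microglia sorted from retinas of Iba1-EGFP mice, a strain in which cells that use the Iba1 (Aif1) promoter carry EGFP, so other macrophages that use this promoter can pass the same gate. The 4 groups were mice at day 0 with no treatment, aged 15 weeks, and mice at 2 days (13 weeks old), 4 days (13 weeks old) and 7 days (16 weeks old) after optic nerve crush, an injury to the axons of retinal ganglion cells, with 4 libraries per day and 16 in all. Age and day cannot be told apart except between days 2 and 4. The labels do not say whether the libraries of a day came from separate mice, so a p-value here speaks for the spread among libraries, part of which may be technical. No mouse in the study lacked Trem2, so the dependence of these genes on TREM2 was not tested.

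TREM2 is a lipid-binding receptor on the surface of microglia that signals through the adaptor TYROBP (DAP12) and the kinase SYK. In mouse models of neurodegeneration, microglia around plaques and dying neurons enter a state in which homeostatic genes such as P2ry12 are low and genes of lipid handling, lysosomes and phagocytosis are high. In the brain this state is described as stepwise, with Tyrobp and Apoe in a first, TREM2-independent stage and Spp1, Itgax, Cst7, Csf1 and others in a later, TREM2-dependent stage.

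Among the genes the results turn on, Cst7 (ENSMUSG00000068129.5) lies at chr2:150570415-150578944 on the + strand, Cd52 (ENSMUSG00000000682.7) at chr4:134082448-134095082 on the - strand, and Spp1 (ENSMUSG00000029304.14) at chr5:104435118-104441050 on the + strand of GRCm38.p6. Trem2 (ENSMUSG00000023992.14) lies at chr17:48346401-48354147 on the + strand. The region around the transcription start was matched in RefSeq for 8 of the 10 genes, all but Tyrobp and Cd52, in 11 windows of 300 bases (build GRCm38.p6), since some genes have several starts. The letters TGANTCA, a looser form of the core TGACTCA or TGAGTCA that AP-1 factors bind, stood in 5 of the 11 windows. These belong to 5 of the 8 genes (Trem2, Gpnmb, Itgax, Cst7 and Igf1), and 7.81% of all 32851 windows held the letters. Only the matches of Gpnmb and Itgax have the C or G of that core in the middle. Those of Cst7, Trem2 and Igf1 have A or T there, and the share of all windows with the stricter core was not counted. The letters GAGGAAG, a core with flank for the microglial factor PU.1, stood in 3 of the 11 windows and in 13.63% of all windows. The 3 belong to Trem2, Spp1 and Igf1. Both strands were searched, and no match of one motif overlapped a match of another. The 37 bases around the TGANTCA match of Cst7, the called gene with the largest change, are shown with those of the other genes that hold these letters, all on the + strand, 5′ to 3′, with the match in capitals.
Cst7 (chr2:150570394-150570430, first base of the match 6 bases before the start): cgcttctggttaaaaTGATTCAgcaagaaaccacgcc
Trem2 (chr17:48346377-48346413, 9 bases before the start): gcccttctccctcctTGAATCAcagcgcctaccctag
Igf1 (chr10:87861059-87861095, 37 bases before the start): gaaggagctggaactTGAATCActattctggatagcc
Itgax (chr7:128129479-128129515, 56 bases before the start): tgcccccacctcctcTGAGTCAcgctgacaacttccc
Gpnmb (chr6:49036511-49036547, 8 bases after the start): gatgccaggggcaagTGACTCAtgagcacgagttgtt
For Spp1, whose windows hold no TGANTCA, the GAGGAAG match begins 113 bases before the start and is shown in the same way.
Spp1 (chr5:104434983-104435019): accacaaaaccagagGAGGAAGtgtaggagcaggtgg
The windows of the 8 genes held neither CACGTG nor CATGTG, the letters of E-boxes that MITF and TFE factors bind, which stood in 7.15% and 14.15% of all windows. When only the 250 bases before the start were searched, 3 of the 11 windows, from 3 of the 8 genes, held TGANTCA, against 6.75% of all windows. The matches of Cst7 and Gpnmb reach past the start. These matches describe letters only and say nothing about binding.

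The reads recovered from the table ranged from 8647276 to 15708302 per library. All 8 microglia markers examined were at 1 FPKM or more in every library, where FPKM is fragments per kilobase of gene and scaled to library size. Day 0 replicate 1 stood apart: it had the lowest summed level of these markers, 3051 FPKM against 4836 to 12069 FPKM in the other 15 libraries, and the highest of rod, cone and Mueller glia markers. It also had the highest summed level of 7 endothelial and pericyte markers (332 FPKM) and of 5 erythrocyte markers (418 FPKM). For 8 Mueller glia and astrocyte markers the summed level on days 0, 2, 4 and 7 was 147 to 1468, 70.3 to 107, 47.5 to 75.9 and 133 to 580.5 FPKM. For 6 bipolar cell markers it was 35.3 to 247, 11.1 to 68.7, 0.213 to 15.9 and 46.2 to 251 FPKM on the same days. At day 4 both lists lay below every day 0 library. Day 0 replicate 2 also held more RNA of other cells than replicates 3 and 4 of that day. Its Mueller glia and astrocyte markers summed to 647 FPKM, against 148 and 147 FPKM. Its bipolar markers summed to 247 FPKM, against 36.3 and 35.3 FPKM. Its endothelial and pericyte markers summed to 96.7 FPKM, against 0.114 and 0.231 FPKM. Of 8 monocyte markers the defining Ccr2 stayed at 0.180 FPKM or less in every library, and the summed level was 0.786 to 49.3 FPKM. Of the 3 of them that were tested, Plac8 rose at day 7 against day 0, by 3.14 (adjusted p = 0.0310, limma), with 10.3 ± 4.53 FPKM at day 7 and 0.244 ± 0.326 FPKM at day 0 (SD, n = 4 each). Plac8 was the only one of the 3 with a positive change at day 7, and their median change was -1.18. Of 6 markers of border macrophages the summed level on days 0, 2, 4 and 7 was 33.0 to 190.3, 64.5 to 175, 79.3 to 329 and 15.8 to 79.9 FPKM. Of the 5 of them that were tested, Lyve1 fell by 2.95 at both day 4 (adjusted p = 0.00713) and day 7 (0.0293) against day 0. No other was called at these days. The change was positive for 4 of the 5 at day 4 (median of the list 1.08) and for 2 at day 7 (-0.48). The medians over all tested genes were 0.16 and -0.07. The part of monocytes and border macrophages in the results was not tested. In bulk samples, fewer cells of a type and less RNA per cell cannot be told apart.

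Cst7 and Cd52 rose after the crush, at days 4 and 7, while Trem2, Tyrobp and Apoe showed no change that passed the test in any comparison. Changes are differences of mean log2(FPKM + 1) from a limma fit over all 16 libraries and all 14795 genes that reached 1 FPKM in 4 libraries or more, and a gene was called at a Benjamini-Hochberg adjusted p under 0.05. All 10 genes passed the filter, but Csf1 reached 1 FPKM in 6 libraries, Gpnmb in 7, and Itgax and Igf1 in 8, so a filter that these genes passed through their high libraries gives no support to any count of them. At day 4 against day 0, 2 of the 10 genes were called, both higher, where 5.34% of all tested genes were called in either direction. At day 7 against day 0 the same 2 genes were called, both higher, where 0.406% of all tested genes were called. No day 7 library shares the 6-digit code of its sample title with a day 0 library. With that code as covariate, limma called 0 of the 10 genes and 28 of all tested genes at day 7 against day 0. At day 2 against day 0 limma called none of the 10, where 0.311% of all tested genes were called, and limma voom on the recovered reads also called 0. At an unadjusted p under 0.05 there were 2 of the 10, where 9.73% of all tested genes were.

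The median change of the 10 genes was -0.13 at day 2, 0.12 at day 4 and 1.05 at day 7 against day 0, beside medians over all tested genes of 0.04, 0.16 and -0.07. At day 7, 8 of the 10 genes had a positive change, where 46.2% of all tested genes did. At days 2 and 4 it was 5 of 10, where 52.6% and 56.0% of all tested genes did. Day 4 against day 2 and day 7 against day 4 gave 0 called genes of the 10 each with limma, where 0.453% and 1.63% of all tested genes were called. At an unadjusted p under 0.05 there were 3 and 2, where 11.4% and 16.3% of all tested genes were, and limma voom also called 0 in both. An F test over the 4 days called 3 of the 10, Cst7, Cd52 and Spp1, where 2.89% of all tested genes were called.

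**Figure D1:**
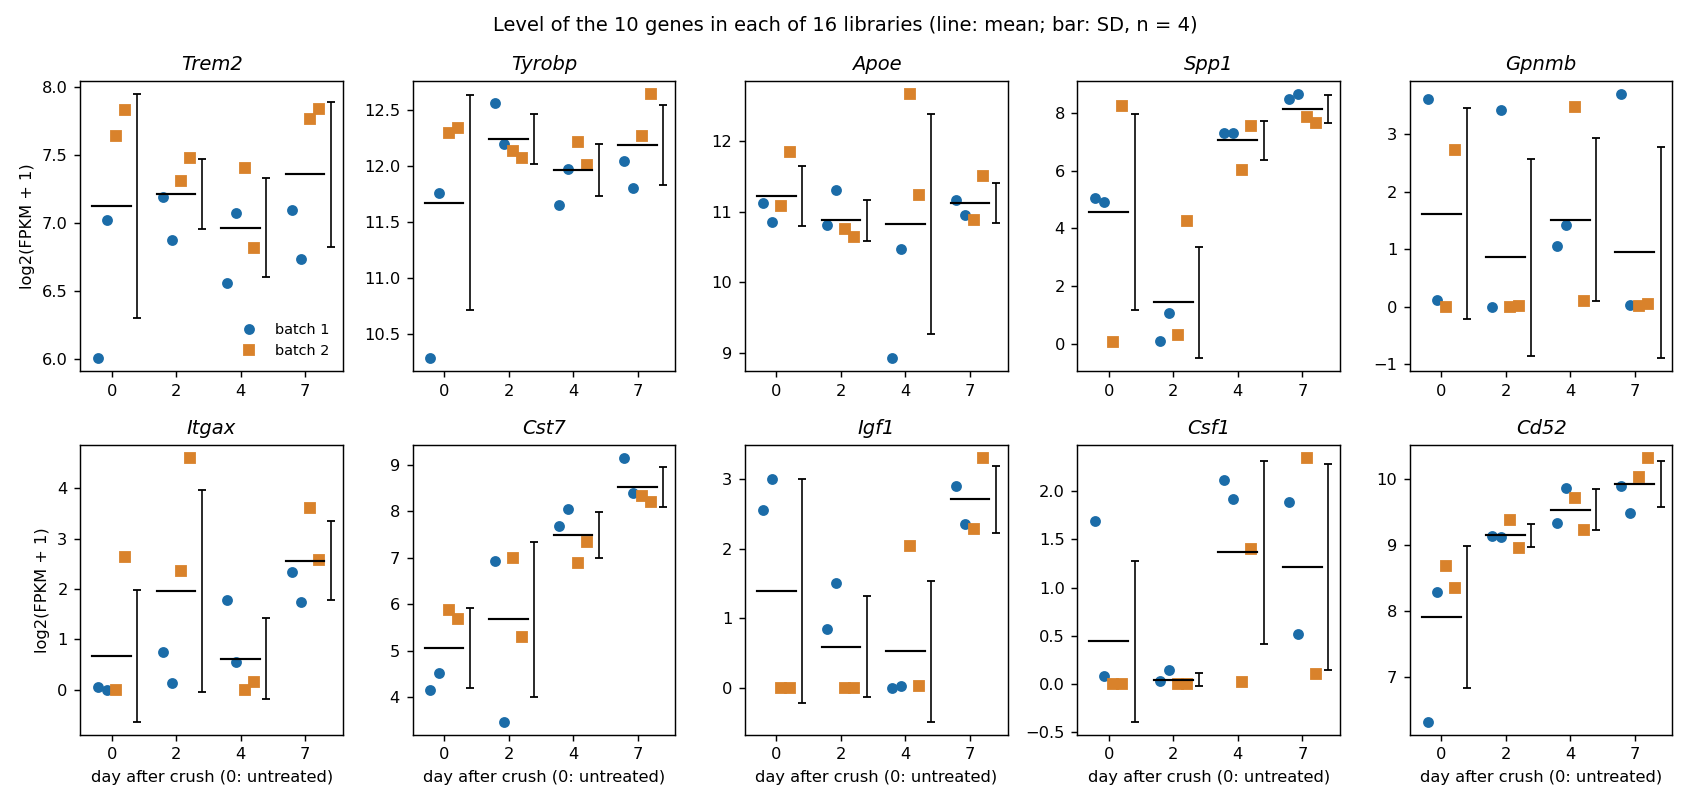
Level of each gene as log2(FPKM + 1) on the vertical axis in each of the 16 libraries by day after crush on the horizontal axis; circles are replicates 1 and 2 (batch 1) and squares replicates 3 and 4 (batch 2), the line is the mean and the bar the SD over 4 libraries. All 4 day 7 libraries of Cst7 (294 to 568 FPKM) and of Cd52 (715 to 1280.4 FPKM) lie above all day 0 libraries, while Gpnmb, Itgax, Igf1 and Csf1 each hold libraries at or near 0 beside libraries above 1 FPKM within single days.

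The receptor Trem2 was among the well expressed genes, with its mean at rank 341 to 649 of all genes by day. It stood at 63.4, 129, 199 and 227 FPKM at day 0 and 145, 116, 158 and 177 FPKM at day 2. The day 4 libraries had 93.5, 134, 169 and 112 FPKM, whereas day 7 had 136, 106, 216 and 228 FPKM. The days overlapped throughout, and the lowest library was day 0 replicate 1. The change was 0.09 at day 2, -0.16 at day 4 and 0.23 at day 7 against day 0 (SE 0.27 each; adjusted p of 0.960, 0.788 and 0.767, limma). Its residual SD, the spread left after day and batch were fitted, was 0.376 on the log2 scale, at percentile 9.90 of all tested genes. Within day 0 the libraries still ran from 63.4 to 227 FPKM.

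Tyrobp, the adaptor that carries the activating motif for TREM2 and several other receptors, had a mean at rank 13 to 17 of all genes on every day. It stood at 1248, 3466, 5023 and 5171 FPKM at day 0 and 6039, 4671, 4474 and 4281 FPKM at day 2. Levels were 3219.8, 4021, 4733 and 4124 FPKM at day 4, whereas day 7 had 4217, 3563, 4917 and 6368 FPKM. Again day 0 replicate 1 was the lowest library and the days overlapped. The change was 0.57 at day 2, 0.29 at day 4 and 0.52 at day 7 against day 0 (SE 0.32 each; adjusted p of 0.588, 0.646 and 0.523, limma). Per library, the level of Tyrobp was 19.7 to 26.8 times that of Trem2 at day 0, 24.2 to 41.7 times at day 2, 28.0 to 36.9 times at day 4 and 22.7 to 33.7 times at day 7.

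Apoe, the lipid carrier that is also a ligand of TREM2, was likewise abundant, with its mean at rank 19 to 29 of all genes. It stood at 2218, 1850.4, 2159 and 3657 FPKM at day 0 and 1798, 2525, 1729 and 1590.4 FPKM at day 2. At day 4 the values were 487, 1425, 6476 and 2399.5 FPKM, whereas day 7 had 2292, 1979, 1879.7 and 2905 FPKM. Day 4 held both the lowest and the highest library of the series, replicates 1 and 3. The change was -0.34 at day 2, -0.40 at day 4 and -0.10 at day 7 against day 0 (SE 0.49 each; adjusted p of 0.884, 0.695 and 0.964, limma). At day 4 it was -1.28 within batch 1 and 0.49 within batch 2, a difference that did not pass the test (adjusted p = 0.530, limma interaction).

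Spp1 encodes osteopontin, a secreted matrix protein that binds integrins and CD44. It stood at 32.0, 29.1, 0.0469 and 305 FPKM at day 0, and at 0.0702, 1.11, 0.254 and 18.0 FPKM at day 2. Its day 4 levels were 157, 158, 64.7 and 185 FPKM, and those of day 7 were 354, 399.7, 229 and 198 FPKM. Days 4 and 7 were high in every library, day 2 was low in every library, and day 0 was split, with replicate 3 near 0 and replicate 4 within the day 7 range. Across days 0, 2, 4 and 7 the means were 91.5 ± 143, 4.87 ± 8.80, 141 ± 52.7 and 295 ± 96.9 FPKM (SD, n = 4 each).

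Spp1 differed among the 4 days (F test adjusted p = 0.0303, limma), and no single comparison of days was called. The change was -3.13 at day 2, 2.48 at day 4 and 3.58 at day 7 against day 0 (SE 1.28 each; adjusted p of 0.424, 0.295 and 0.273, limma). Its day 4 change against day 2 was 5.61 (adjusted p = 0.0731), with all 4 day 4 libraries above all 4 day 2 libraries. That separation was seen in 7.83% of all tested genes, and Spp1 was the only gene of the 10 to show it. That change was called without day 0 replicate 3 (adjusted p = 0.0155) or without day 0 replicate 4 (0.0334), and its day 2 change against day 0 without day 0 replicate 3 (-4.75, 0.0382). Its F test was lost without day 2 replicate 1, 2 or 3 (adjusted p of 0.0752, 0.0649 and 0.0781), day 4 replicate 1, 2 or 4 (0.0654, 0.0726 and 0.0567) or day 7 replicate 1 or 2 (0.0552 and 0.0623). With the gene model Gm42793, 18.75% of its exon bases are shared on the same strand, and that model reached 14.8 FPKM.

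Igf1, the insulin-like growth factor that microglia secrete, was low. It stood at 4.89, 7.02, 0 and 0 FPKM at day 0 and 0.794, 1.84, 0 and 0 FPKM at day 2. The day 4 libraries had 0, 0.0203, 3.12 and 0.0129 FPKM, whereas day 7 had 6.49, 4.11, 3.88 and 8.92 FPKM. Day 7 was the only day with all 4 libraries above 1 FPKM, and all 4 lay above every day 4 library. At day 0, both batch 1 libraries were in the day 7 range and both batch 2 libraries were listed at 0. The change at day 7 against day 4 was 2.19 (SE 0.69; adjusted p = 0.128, limma), and it was called without day 4 replicate 3 (2.87, adjusted p = 0.0442). Against day 0 the change at day 7 was 1.32 (adjusted p = 0.458), at -0.15 within batch 1 and 2.80 within batch 2 (adjusted p of the difference 0.360, limma interaction).

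Csf1, the growth factor whose receptor CSF1R keeps microglia alive, was the lowest of the 10 genes by mean. It stood at 2.23, 0.0559, 0 and 0 FPKM at day 0 and 0.0219, 0.102, 0 and 0 FPKM at day 2. Levels were 3.35, 2.79, 0.0147 and 1.64 FPKM at day 4, whereas day 7 had 2.695, 0.431, 4.09 and 0.0769 FPKM. No day 2 library reached 1 FPKM, and 3 day 4 libraries and 2 day 7 libraries did. The change was -0.40 at day 2, 0.92 at day 4 and 0.77 at day 7 against day 0 (SE 0.55 each; adjusted p of 0.878, 0.367 and 0.590, limma). The day 4 change against day 2 was 1.32 (adjusted p = 0.363). For libraries listed at 0, 3 reads would have been 0.0404 to 0.0594 FPKM of Csf1 and 0.0216 to 0.0317 FPKM of Igf1, a limit that covers counting error only.

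Itgax encodes CD11c, the integrin chain that marks this state in mouse brain and is also high in dendritic cells. It stood at 0.0434, 0, 0 and 5.22 FPKM at day 0 and 0.674, 0.0931, 4.14 and 23.4 FPKM at day 2. At day 4 the values were 2.43, 0.459, 0 and 0.106 FPKM, whereas day 7 had 4.03, 2.35, 11.2 and 4.95 FPKM. Day 7 was the only day with all 4 libraries above 1 FPKM, day 2 replicate 4 held the highest level, and at day 0 a single library, replicate 4, was above 1 FPKM. The change was 1.29 at day 2, -0.06 at day 4 and 1.89 at day 7 against day 0 (SE 0.81 each; adjusted p of 0.649, 0.978 and 0.366, limma). None of 5 dendritic markers (Flt3, Zbtb46, Cd209a, Xcr1 and Clec9a) reached 1 FPKM in any library of days 2, 4 or 7. Their summed level was at most 0.361 FPKM at day 7, and at day 0 it reached 4.67 FPKM in replicate 1 and 3.76 FPKM in replicate 4, the library with 5.22 FPKM of Itgax; the part of dendritic cells in these levels was not tested.

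Gpnmb, a glycoprotein of lysosomes and the cell surface, had either a clear level or almost none in every day. It stood at 11.3, 0.0906, 0 and 5.61 FPKM at day 0 and 0, 9.77, 0 and 0.00546 FPKM at day 2. The day 4 libraries had 1.09, 1.69, 10.1 and 0.0782 FPKM, whereas day 7 had 12, 0.0159, 0.0109 and 0.0312 FPKM. Each day had at least 1 library near or above 10 FPKM and at least 1 below 0.1 FPKM. The change was -0.76 at day 2, -0.10 at day 4 and -0.67 at day 7 against day 0 (SE 1.09 each; adjusted p of 0.884, 0.970 and 0.844, limma). Libraries stood on both sides of 1 FPKM in 4 of 4 days for Gpnmb, in 3 for Itgax, Igf1 and Csf1, in 2 for Spp1 and in 0 for the other 5 genes.

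Cd52 encodes a short glycoprotein on the surface of leukocytes, microglia among them. It stood at 78.6, 311, 409 and 326 FPKM at day 0 and 561, 557, 666 and 495 FPKM at day 2. Levels were 642, 935, 843 and 599.8 FPKM at day 4, whereas day 7 had 949, 715, 1045 and 1280.4 FPKM. Every library after the crush lay above every day 0 library, and Cd52 alone of the 10 genes was already separated from day 0 at day 2. The means of days 0, 2, 4 and 7 were 281 ± 142, 569.6 ± 70.8, 755 ± 160.2 and 997 ± 234 FPKM (SD, n = 4 each). The rank of the mean among all genes was 162, 90, 60 and 55 on these days.

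Cd52 rose by 1.63 at day 4 (SE 0.37; adjusted p = 0.0206, limma) and by 2.02 at day 7 (SE 0.37; adjusted p = 0.0298) against day 0, and at day 2 the change was 1.24 (adjusted p = 0.220). Within batches 1 and 2 it was 2.3 and 0.96 at day 4 and 2.39 and 1.66 at day 7, with adjusted p for the batch difference of 0.651 and 0.814. With the bipolar and Mueller marker levels as covariates the day 4 change was 0.59 (adjusted p = 0.714) and the day 7 change 1.80 (0.0525), and with libraries rescaled to the same level of the 8 microglia markers they were 1.57 (0.0169) and 2.43 (9.99e-04). The day 4 call was lost without day 4 replicate 1 or 2 (adjusted p of 0.0574 and 0.0824), the day 7 call without day 0 replicate 4 (0.0518) or day 7 replicate 1, 2, 3 or 4 (0.0785, 0.0657, 0.0794 and 0.0969), and the F test (0.0273) without day 4 replicate 1 or 2 (0.0587 and 0.0549) or day 7 replicate 1 (0.0506). The day 4 call was also lost with median-of-ratios scaling (1.16, adjusted p = 0.111) and TMM scaling (1.54, 0.0577), which left the day 7 call, and both were lost without day 0 replicates 1 and 2 together (1.09, 0.0553 and 1.48, 0.0525). On the opposite strand Crybg2 covers 14.49% of the exon bases of Cd52 and reached 0.139 FPKM.

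Cst7 encodes cystatin F, an inhibitor of lysosomal cysteine proteases such as cathepsin C. It stood at 16.7, 21.8, 57.9 and 50.6 FPKM at day 0 and 121, 10.1, 127 and 38.0 FPKM at day 2. At day 4 the values were 205, 263, 117 and 161 FPKM, whereas day 7 had 568, 337, 321 and 294 FPKM. Day 2 was split, with replicate 2 below every day 0 library, replicate 4 within the day 0 range and replicates 1 and 3 above it, while all day 4 libraries lay above day 0, and all day 7 libraries lay above day 4. Mean levels on days 0, 2, 4 and 7 were 36.7 ± 20.5, 74.0 ± 58.9, 187 ± 62.5 and 380.0 ± 127 FPKM (SD, n = 4 each), at ranks of 1741, 958, 419 and 143 among all genes.

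Cst7 rose by 2.43 at day 4 (SE 0.65; adjusted p = 0.0421, limma) and by 3.47 at day 7 (SE 0.65; adjusted p = 0.0331) against day 0. At day 2 the change was 0.61 (adjusted p = 0.825). The mean FPKM at day 7 was 10.3 times that at day 0, and at day 4 it was 5.08 times. Within batches 1 and 2 the change was 3.54 and 1.33 at day 4 and 4.45 and 2.48 at day 7, with adjusted p for the batch difference of 0.679 and 0.675.

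With the bipolar and Mueller marker levels as covariates the change of Cst7 at day 4 was 0.91 (adjusted p = 0.782) and at day 7 3.11 (0.0692), and with libraries rescaled to the same level of the microglia markers it was 2.37 (0.0319) and 3.87 (0.00214). The day 4 call was lost without day 0 replicate 1, 2 or 4 (adjusted p of 0.109, 0.0994 and 0.0601), day 2 replicate 4 (0.05), day 4 replicate 1, 2, 3 or 4 (0.106, 0.13, 0.0525 and 0.0707) or day 7 replicate 2 or 3 (0.0562 and 0.0501). The day 7 call was lost without day 0 replicate 1, 2 or 4 (0.0994, 0.09 and 0.0533) or day 7 replicate 1, 2, 3 or 4 (0.0977, 0.0828, 0.0794 and 0.0887). Median-of-ratios scaling (1.97, adjusted p = 0.123) and TMM scaling (2.34, 0.0645) ended the day 4 call and left the day 7 call, and neither call held without day 0 replicates 1 and 2 together (1.65, 0.343 and 2.68, 0.229). The F test (0.0218) was lost without day 0 replicate 2 (0.0503) or day 7 replicate 2 (0.0513). T and NK cells also express Cst7: Nkg7 was at most 0.340 FPKM in every library, and Trac was at 30.5 FPKM in a single library, day 7 replicate 4, where Cst7 was at 294 FPKM. The part of such cells in the Cst7 levels was not tested.

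**Figure D2:**
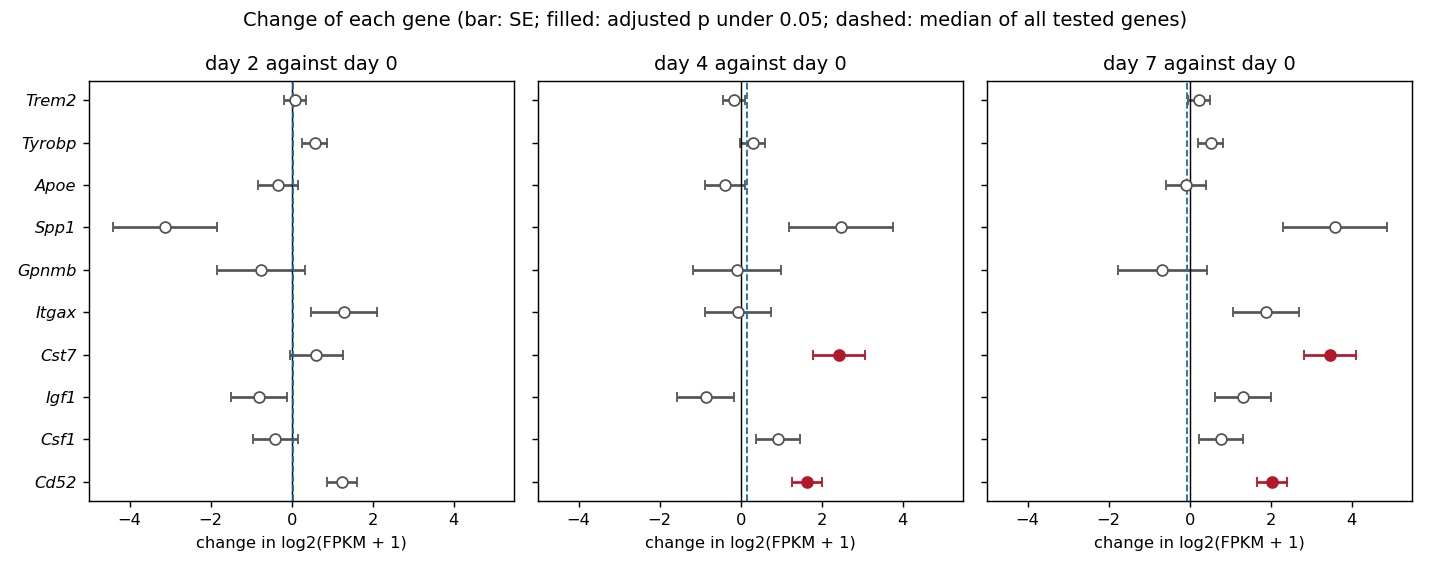
Change of each gene in log2(FPKM + 1) on the horizontal axis, with the SE of the limma fit as bars, at day 2, day 4 and day 7 against day 0; filled points have an adjusted p under 0.05 and the dashed line is the median of all 14795 tested genes. Cst7 (2.43 and 3.47) and Cd52 (1.63 and 2.02) are the filled points, at days 4 and 7, and Spp1 has the widest bars of the 10 (SE 1.28).

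Read as separation of libraries, all 4 day 2 libraries lay above all 4 day 0 libraries for 1 of the 10 genes (Cd52), against 3.37% of all tested genes. The count was 2 of 10 (Cst7 and Cd52) at day 4, against 12.6% of all tested genes, and 2 of 10 (the same genes) at day 7, against 2.51%. From day 4 to day 7, Spp1, Cst7 and Igf1 had all 4 day 7 libraries above all 4 day 4 libraries, against 2.23% of all tested genes, with changes of 1.10, 1.03 and 2.19 that did not pass the test (adjusted p of 0.718, 0.457 and 0.128, limma).

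Other genes of the later, TREM2-dependent stage, without the 10, were listed with earlier results of these data known. They give no independent support for the changes of Cst7 and Cd52. Of the 22 tested genes on this list, 9 were called higher at day 4 against day 0 and 0 lower, and 3 were called higher at day 7. Of all tested genes, 5.34% and 0.406% were called in either direction at these days. At day 4 these were 684 higher and 106 lower. The median change of the list was 1.43 at day 4 and 1.10 at day 7, beside 0.16 and -0.07 over all tested genes. The largest rises at day 4 were those of Lgals3, a secreted galectin (5.05, adjusted p = 0.00838, limma), Lpl, a lipase (4.44, 0.00506), and Lilrb4a, an inhibitory receptor (3.54, 0.00355). Lpl averaged 48.4 ± 10.2 FPKM at day 4 and 1.87 ± 2.52 FPKM at day 0 (SD, n = 4 each). The phagocytic receptor Clec7a and the lysosomal membrane protein Cd63 rose at both days, by 1.91 and 2.31 and by 1.39 and 1.67, and Lilrb4a also rose at day 7, by 2.95.

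The remaining day 4 rises on that list were Cd9, Cd68, Gusb and Capg, between 1.08 and 1.76. The day 4 count was 3 of 22 with median-of-ratios scaling, which moves the median of all genes at day 4 from 0.16 to -0.17, and 0 with the bipolar and Mueller marker levels as covariates. It was 10 with libraries rescaled to the microglia markers, which put the median of all genes at 0.03 on day 4 and moved it from -0.07 to 0.11 on day 7, and 3 without day 0 replicates 1 and 2, and in the last of these the day 7 count was 0. Leaving out day 4 replicate 2 gave 5 at day 4, and leaving out day 7 replicate 1, 2 or 4 gave 1 at day 7. The day 4 calls of Lpl, Lgals3, Lilrb4a, Clec7a and Cd63 and the day 7 call of Cd63 held in all 16 fits without 1 library. That of Cd9 was lost without day 4 replicate 2 (adjusted p = 0.0519). Those of Cd68, Gusb and Capg were lost without any of 4 libraries each (day 0 replicate 1 and day 4 replicates 1 and 2 for all of them, day 0 replicate 2 for Cd68 and Gusb, and day 0 replicate 4 for Capg; adjusted p up to 0.0876, 0.087 and 0.118). The day 7 call of Clec7a was lost without day 7 replicate 1, 2 or 4 (adjusted p up to 0.0596, limma). The day 7 call of Lilrb4a was lost without any of 7 libraries, day 0 replicates 1, 3 and 4 and each day 7 library (adjusted p up to 0.0964).

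The earlier-stage list of 7 genes (B2m, Ctsb, Ctsd, Fth1, Lyz2, Timp2 and H2-D1) had 0 called genes in every comparison with limma and with limma voom, and 2 at day 4 and 3 at day 7 against day 0 had an unadjusted p under 0.05, where 20.9% and 12.15% of all tested genes had one. The median change was 0.10 at day 4 and 0.39 at day 7, and with libraries rescaled to the microglia markers 3 of the 7 were called higher at day 7. Timp2 is placed in the later stage in the brain scheme, though it was listed here and not among the 22 genes above. Its changes were -0.92 at day 4 and -1.16 at day 7 against day 0 (adjusted p of 0.0794 and 0.126, limma). A list of genes that signal below TREM2 also held Adam10 and Adam17, which encode proteases that cleave it. Of this list, 13 genes were tested and 0 were called in any comparison with limma or limma voom. At an unadjusted p under 0.05 there were 1, 0 and 1 at days 2, 4 and 7 against day 0 (9.73%, 20.9% and 12.15% of all tested genes). Syk, the kinase that TYROBP recruits, averaged 1.56 to 3.03 FPKM by day, and the phosphatase gene Ptpn6 and the adaptor gene Hcst (DAP10), 2 of the 3 highest of the list, had changes of 0.17 and 0.71 at day 4 and of -0.01 and 0.90 at day 7 against day 0. Of the other TREM genes only Treml2 passed the filter, at 0.087 FPKM on average at day 0 and 4.57, 4.58 and 1.62 FPKM at days 2, 4 and 7, with no call.

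Of 18 homeostatic microglia genes, 1 rose at day 4 (Fcrls, by 1.67) and limma called 0 lower at days 2, 4 and 7, with 3, 4 and 7 of the 18 at an unadjusted p under 0.05, where 9.73%, 20.9% and 12.15% of all tested genes were; limma voom called 1 lower, at day 4. The median change was -0.22 at day 4 and -0.49 at day 7. P2ry12, the purinergic receptor of resting microglia, had a change of -1.32 at day 4 (adjusted p = 0.135, limma) and Tmem119 one of -1.51 at day 7 (0.180). Fcrls was not called without day 4 replicate 2 (adjusted p = 0.0532) or with median-of-ratios scaling, a scaling that called 1 gene of the list lower. At day 4, 3 genes of the list were called lower without day 0 replicate 1, and 1 without day 7 replicate 1 or 4.

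Among the partners of single members, the cystatin gene Cstb rose with Cst7, by 1.90 at day 4 (adjusted p = 0.00167, limma) and 1.75 at day 7 (0.0104), and both calls held in all 16 fits without 1 library. Ctsc, the gene of cathepsin C, rose by 1.75 at day 4 (0.00742), which also held in all 16, and the other 6 cystatin and protease genes of that list were not called against day 0. The more abundant Cst3, which encodes cystatin C, had changes of -1.07 and -1.18 at days 4 and 7 (adjusted p of 0.0884 and 0.194); without day 0 replicate 1, 2 genes of the list were called lower at day 4 and 1 at day 7. None of 11 tested lipoprotein genes around Apoe, 6 growth factor and receptor genes around Csf1 and Igf1, 11 integrin and CD44 genes around Spp1 and Itgax, or 3 MITF and TFE factor genes was called against day 0 with limma or limma voom. At an unadjusted p under 0.05 there were 1, 3 and 2 of the lipoprotein genes at days 2, 4 and 7, 0, 0 and 1 of the growth factor genes, 0, 1 and 3 of the integrin genes and 0 of the factor genes, where 9.73%, 20.9% and 12.15% of all tested genes were; without day 0 replicate 3, 1 lipoprotein gene was called lower at day 2 and 1 at day 4.

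**Figure D3:**
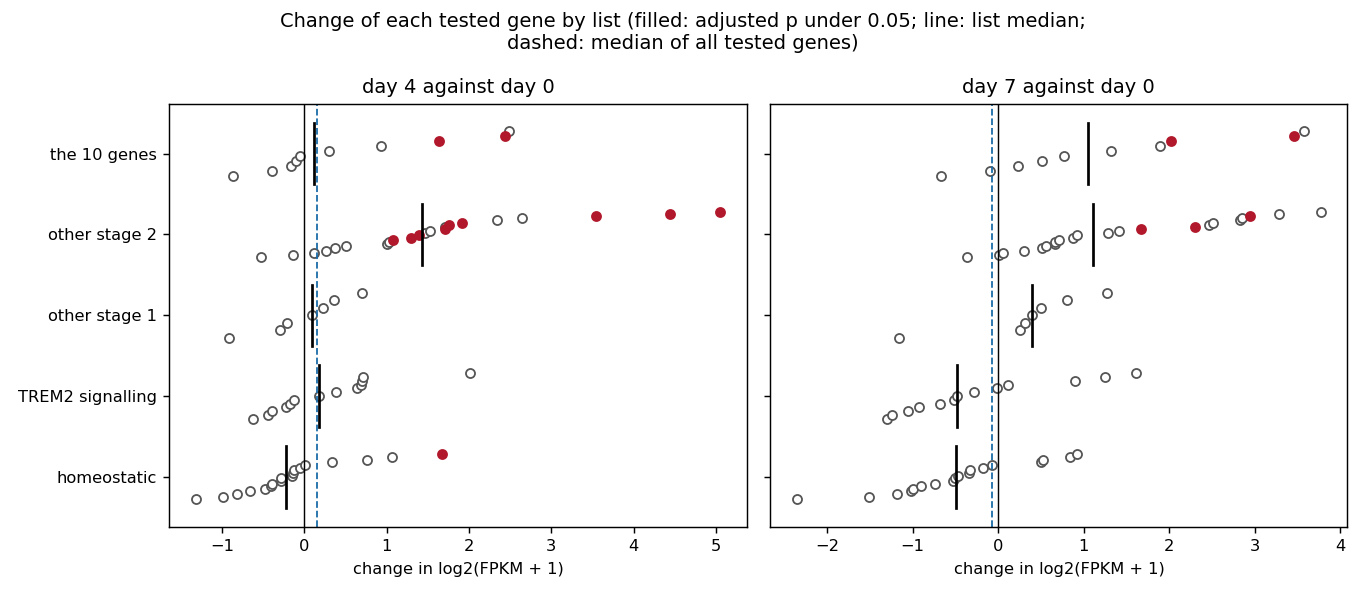
Change in log2(FPKM + 1) on the horizontal axis of each tested gene of 5 lists, at day 4 and day 7 against day 0; filled points have an adjusted p under 0.05, the short line is the list median and the dashed line the median of all tested genes. The other genes of the later stage hold 9 filled points at day 4 and 3 at day 7, all to the right of 0, and the signalling and earlier-stage lists hold none.

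Across the 16 libraries, with batch means subtracted, the levels of Trem2 and Tyrobp had the highest Pearson r of the 45 pairs of the 10 genes, 0.81. Cst7 and Cd52, and Tyrobp and Cd52, had an r of 0.74. Spp1 had its highest r with Csf1 (0.56) and Cst7 (0.53), and the lowest r of all pairs was that of Apoe and Itgax, -0.42. These values describe libraries that share depth, batch and cell make-up.

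**Figure D4:**
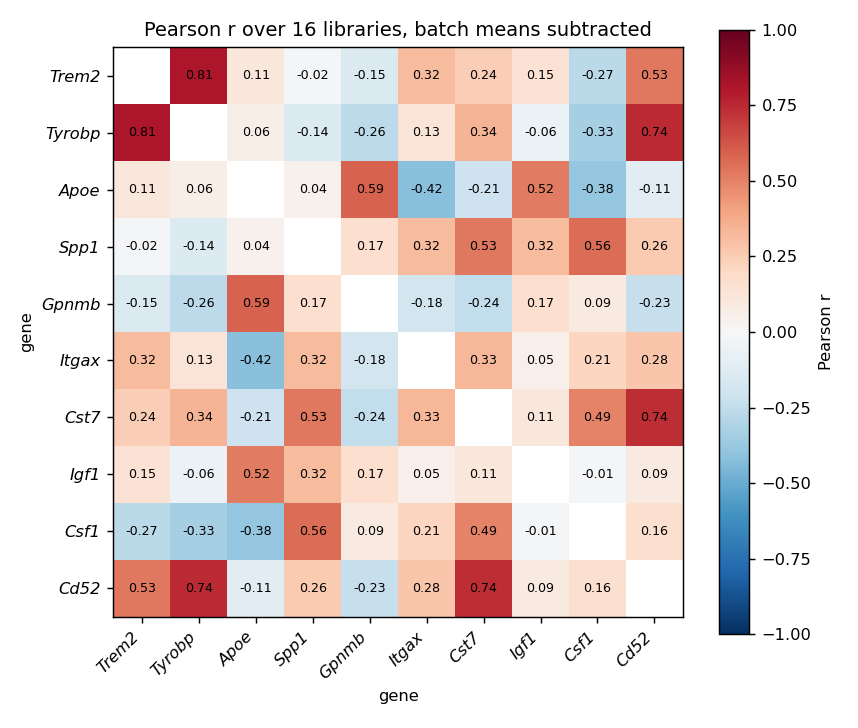
Pearson r of log2(FPKM + 1) over 16 libraries, with batch means subtracted, for each pair of the 10 genes on both axes. The darkest cells are Trem2 with Tyrobp (0.81) and Cd52 with Tyrobp and with Cst7 (0.74 each), while Gpnmb has its highest r with Apoe (0.59) and values of -0.15 with Trem2 and -0.26 with Tyrobp.

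By the same measure over all tested genes, the 3 most like Cst7 were Clec7a (0.90), Phf11 (0.90) and Phf11b (0.90), and those most like Cd52 were Atp6v0e (0.95), a subunit of the lysosomal proton pump, Aif1 (0.93), the gene of Iba1, and Cops9 (0.92). Those most like Trem2 were Hexa (0.88), a lysosomal hexosaminidase subunit, Rnaset2b (0.83) and Rnaset2a (0.83), and those most like Tyrobp were Rnaset2a (0.94), Rnaset2b (0.94) and the complement gene C1qb (0.94). Rnaset2a with Rnaset2b, and Phf11 with Phf11b, are near-identical copies that can share reads, so their values are uncertain. For Spp1 the 3 were Dpp7 (0.89), Nasp (0.83) and Btg1 (0.82), for Apoe they were Uqcrh (0.82), Uqcrh-ps2 (0.77) and Pdhx (0.72), and for Itgax they were H2-T23 (0.85), Adap1 (0.82) and Ccng2 (0.82).

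For the 3 lowest genes the most alike were Nr1d2 (0.90), Klhl8 (0.80) and Ltn1 (0.79) for Gpnmb, Cadm1 (0.88), Malat1 (0.85) and Mlc1 (0.83) for Igf1, and Wee1 (0.88), Exog (0.87) and Rbm19 (0.87) for Csf1. The mean of the 10 standardised levels was most like Sat1 (0.85), a polyamine enzyme, Ms4a4c (0.83) and the class I antigen presentation genes H2-Q7 (0.83), H2-Q5 (0.82) and H2-K1 (0.81), which are members of a family of similar sequences and so uncertain. Ms4a4c averaged 2.05, 8.20, 9.97 and 69.9 FPKM at days 0, 2, 4 and 7, and Sat1 averaged 198, 215, 214 and 438 FPKM.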

How the data were processed

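The deposited table gives FPKM for 55385 genes in 16 libraries, which the authors made, as the submitters' processing notes name them, with STAR 2.7.2b, featureCounts 1.6.1 and the build GRCm38.p6 (mm10). Libraries were made from amplified cDNA with Nextera XT, per the labels' protocols; strand is not marked by this kit, and a gene and its antisense partner cannot be told apart. The treatment of multi-mapping reads is not stated in the labels. FPKM times gene length summed to the same total in every library, and the values lay on steps of 0.01 read (tolerance 0.02 steps), which gave the reads per library; 46.9% to 63.4% were whole, so the values were tested as FPKM. Since PCR copies were not marked by molecular identifiers, floors cover counting error only.

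limma 3.58.1 in R 4.3.3 was fitted to log2(FPKM + 1), with eBayes and a trend, on 14795 genes that reached 1 FPKM in 4 libraries or more, with all 16 libraries and a batch covariate. This scale understates the change of low genes. Batch is the first 4 digits of a 6-digit code in the sample titles, which separates replicates 1 and 2 from replicates 3 and 4 of every day. The labels do not explain the code. The full code also differs between days within a batch. Day 0 shares it with day 2 in batch 2 and with day 4 in batch 1, and with day 7 in neither. The batch covariate does not account for this, so day 7 against day 0 is not separated from the full code. Tests were two-sided, with Benjamini-Hochberg adjustment over all tested genes and a threshold of 0.05. Each later day was set against day 0 and days 4 and 7 also against the sampled day before them (5 comparisons), with an F test over days and a day-by-batch interaction. The script was checked on simulated data. Alternatives covered pseudocount, filters, scaling, covariates, single batches, robust eBayes and leaving out libraries; voom on recovered reads, rescaling to the microglia markers and the fit without day 0 replicates 1 and 2 were chosen after seeing the data.

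The 10 genes and all lists were chosen with earlier results of these data known. The genes named besides the 10 were the 3 of each list with the highest mean FPKM, up to 6 called against day 0, and the 3 most like each of the 10 (5 for their mean), without unnamed gene models; other names (Gusb, Capg, Gm42793, Crybg2, Syk, P2ry12, Tmem119, the rest of the earlier-stage list and single cell type markers) were chosen after their values were seen. Promoter windows came from RefSeq. Python 3.11.15, pandas 2.3.3 and matplotlib 3.10.9 were used.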

Additional observations from a re-analysis of the deposited data

Results flagged for a closer look

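Of the 40 sets of 4 libraries (10 genes on 4 days), 9 had a single library far from the other 3, by Dixon's criterion on FPKM. Chance gives about 1 set in 20 where values are normally distributed, and that rate is no yardstick here, since FPKM of genes with libraries at or near 0 are skewed towards high values. All 9 were the highest library of their day. Spp1 stood at 305 FPKM in day 0 replicate 4, where the next library had 32.0 FPKM, and at 18.0 FPKM in day 2 replicate 4, where the next had 1.11 FPKM. Day 0 replicate 4 also held the outlying Itgax value of that day, 5.22 FPKM, with 0.0434 FPKM in the next library. Its summed level of the 8 microglia markers, 12047 FPKM, was the highest of its day, and its Mueller glia and bipolar marker sums were the lowest of its day (147 and 35.3 FPKM).

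Gpnmb had an outlying library on 3 days, at 9.77 FPKM in day 2 replicate 2 (next 0.00546 FPKM), 10.1 FPKM in day 4 replicate 3 (next 1.69 FPKM) and 12 FPKM in day 7 replicate 1 (next 0.0312 FPKM). The 4 highest Gpnmb libraries of the series came from 4 different days. Igf1 stood at 3.12 FPKM in day 4 replicate 3 (next 0.0203 FPKM), the library that also held the highest Apoe level. Csf1 stood at 2.23 FPKM in day 0 replicate 1 (next 0.0559 FPKM), the library with the lowest microglia marker level. Cst7 stood at 568 FPKM in day 7 replicate 1 (next 337 FPKM), and all 4 libraries of that day remained above every other library of the series. What sets these libraries apart was not tested.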

How the results depend on the processing

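The changes of Cst7 and Cd52 at days 4 and 7 kept their direction in all 33 other fits, and the calls did not. Of the 10 genes, the count called at day 4 against day 0 (2) was 1 with a pseudocount of 0.1, with the replicate block, with the full title code as covariate, in batch 1 alone (Spp1), with voom and with only the 2 days compared in the fit. It was 0 with no filter on low values, with median-of-ratios or TMM scaling, in batch 2 alone, with the bipolar and Mueller covariates and without day 0 replicates 1 and 2. The count at day 7 against day 0 (2) was 1 without the libraries whose titles begin with F. It was 0 with no filter, the replicate block, the title code, either batch alone, the bipolar and Mueller covariates, voom, only the 2 days compared, and without day 0 replicates 1 and 2. The F test count (3) was 1 with the title code, in batch 1 alone and without day 0 replicates 1 and 2, and 0 with no filter, in batch 2 alone and with the bipolar and Mueller covariates. Counts of 0 became 1 for Spp1 at day 4 against day 2 with a filter of 5 FPKM, with the replicate block and in batch 1 alone, and at day 2 against day 0 in batch 1 alone. Leaving out 1 library gave 0 to 2 called genes at day 4 and at day 7 against day 0, 0 to 1 in each of the other comparisons (day 2 against day 0, day 4 or 7 against the day before it), and 1 to 3 in the F test. The cause of these differences was not tested. Over all tested genes, 790 were called at day 4 against day 0 and 60 at day 7, and 0 to 864 and 0 to 113 under the alternatives (0 at day 4 in batch 2 alone and with the bipolar and Mueller covariates, 271 with median-of-ratios scaling, and 0 at day 7 in batch 2 alone); leaving out 1 library gave 267 to 955 and 16 to 57. The replicate numbers did not pair the libraries: of 24 same-number pairs, 5 had a correlation over 0.1 (-0.06 to 0.23), and 6 of 16 libraries were most like their own number. Of 46 uncalled changes, 27 turned sign under some alternative, and none of these was called either way. With 4 libraries a day, the residual SD on the log2 scale was 2.08 for Spp1. For the low genes Gpnmb, Itgax, Igf1 and Csf1 it was 1.70, 1.22, 1.01 and 0.796. A missing call for these genes therefore does not show that they did not change.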
